A study of Mus musculus with 10 samples.

Results

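A set of 10 genes of dorsal WNT signalling was followed in the embryonic mouse spinal cord after conditional inactivation of *Dot1l*. The 10 genes were the ligands *Wnt1*, *Wnt3*, *Wnt3a* and *Wnt4*, the R-spondins *Rspo1*, *Rspo2* and *Rspo3*, the signal transducer *Dvl1*, and the targets *Axin2* and *Lef1*. They were chosen by name, with earlier results of these data known. All 10 were among the 54146 genes of the count table, and all 10 passed the filter on low counts. RNA-seq was performed on the lumbar spinal cord, with the dorsal root ganglia left on, of 10 single E12.5 embryos, 5 *Dot1l*-cKO and 5 control littermates from 2 litters. *Dot1l*-cKO embryos carried 1 allele of the Wnt1cre2 transgene and were Dot1l fl/fl. Control embryos carried no transgene and were Dot1l fl/fl in litter 1 (3 embryos) and Dot1l fl/+ in litter 2 (2 embryos), beside 3 and 2 *Dot1l*-cKO embryos. All were of the same B6.Cg line, whose allele name places the transgene at *E2f1*. Wnt1cre2 recombines in the dorsal neural tube and the neural crest, so the tissue also held cells in which *Dot1l* was not deleted. No control carried the transgene, so an effect of the transgene itself cannot be told apart from that of the deletion.

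WNT ligands are secreted, lipid-modified proteins. Those of the roof plate, among them *Wnt1* and *Wnt3a*, promote proliferation and dorsal identity of spinal cord progenitors. A canonical ligand binds a Frizzled receptor together with LRP5 or LRP6, a Dishevelled protein is recruited, the complex that degrades beta-catenin is held back, and beta-catenin acts with TCF/LEF factors on target genes. R-spondins strengthen the signal by removing the ubiquitin ligases RNF43 and ZNRF3 that clear Frizzled receptors from the membrane. *Axin2* is a feedback inhibitor and one of the most general targets of the pathway, and *Lef1* is both a target and a transcription factor of it.

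*Dvl1* was the only one of the 10 genes that passed the test between groups (log2 fold change 0.38, SE 0.09, adjusted p = 0.0437, edgeR's quasi-likelihood test, n = 5 and 5), beside 3.19% of all tested genes. Its call was kept in only 1 of 10 fits that left out 1 embryo. *Wnt1* had the largest difference (0.61, SE 0.18) without passing the same test (adjusted p = 0.0721). *Wnt3*, *Wnt4*, *Rspo3* and *Axin2* differed by less than 0.05 on the log2 scale. Between litters 6 of the 10 genes differed, beside 36.4% of all tested genes, *Wnt3a* with a log2 fold change of 1.04. *Rspo1* and *Dvl1* differed more between groups than between litters.

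Total counts per embryo ranged from 40949585 to 61194291 in controls and from 54870771 to 68928443 in *Dot1l*-cKO. *Dot1l* itself did not fall, with 94.0 ± 7.85 counts per 1000000 (CPM) in controls and 106 ± 6.15 in *Dot1l*-cKO (SD, n = 5 and 5). Since a gene count also includes exons outside the deleted part, this value does not check the genotype labels. Both *Dot1l*-cKO embryos of litter 2 had 6.00 and 6.79 CPM of *Xist* and 46.7 and 41.5 CPM of the Y-linked *Ddx3y*, whereas the other 8 embryos had 499 to 890 and at most 0.243 CPM. The 2 groups of litter 2 therefore also differed in sex, and genotype and sex cannot be told apart within it. In litter 1 all 6 embryos had the female pattern. The 10 genes are given over both litters and within each, and their embryos are listed in the same order throughout.

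The sequence before the start of 3 of the genes is shown as a description, since RNA counts do not test what binds there. That of *Wnt1* lies ahead of the gene whose regulatory sequence drives the transgene, and *Axin2* and *Lef1* are targets that varied together. Capitals mark matches to CTTTGA or CTTTGT, the core letters bound by TCF/LEF factors, which on the reverse strand read TCAAAG and ACAAAG. Each stretch is the 250 bases before a gene start in RefSeq (GRCm38.p6, plus strand).
Wnt1, chr15:98789607-98789856: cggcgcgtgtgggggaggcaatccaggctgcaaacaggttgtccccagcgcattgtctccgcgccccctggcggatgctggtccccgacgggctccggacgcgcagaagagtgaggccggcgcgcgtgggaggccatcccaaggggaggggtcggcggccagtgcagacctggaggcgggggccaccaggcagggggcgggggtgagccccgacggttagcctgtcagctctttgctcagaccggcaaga
Axin2, chr11:108920099-108920348: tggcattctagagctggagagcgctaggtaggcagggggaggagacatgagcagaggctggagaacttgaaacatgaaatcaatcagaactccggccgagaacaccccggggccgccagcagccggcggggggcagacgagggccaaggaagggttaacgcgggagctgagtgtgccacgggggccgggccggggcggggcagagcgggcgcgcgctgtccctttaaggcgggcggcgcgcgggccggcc
Lef1, start inside the gene, chr3:131156044-131156293: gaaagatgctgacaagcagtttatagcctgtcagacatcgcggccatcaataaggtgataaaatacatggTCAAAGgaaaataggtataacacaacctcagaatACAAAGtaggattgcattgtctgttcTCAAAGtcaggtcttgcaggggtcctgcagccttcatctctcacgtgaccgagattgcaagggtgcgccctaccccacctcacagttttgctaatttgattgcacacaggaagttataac
The *Wnt1* and *Axin2* windows held no match. *Lef1* has 4 windows in the table, of which 3, among them those at the first start of the gene, held no match. The *Lef1* window shown, the only one with a match, lies in an intron of the longer transcripts. It held 3 matches on the reverse strand, beginning at positions -180, -146 and -120 from the start. RefSeq windows were found for 8 of the 10 genes, all but *Rspo2* and *Rspo3*. Of their 11 windows 1 held a match, and of 32851 windows of this length in the mouse 27.6% did. A match describes letters only.

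Levels of the 10 genes differed widely. Per kb of exon, so that genes can be compared, *Dvl1* (16.2 CPM per kb, mean of 10 embryos), *Wnt4* (13.6) and *Axin2* (10.4) were the most abundant. *Wnt3* followed with 3.02 and *Wnt1* with 1.88 CPM per kb. *Rspo1* (0.978), *Rspo3* (0.969), *Wnt3a* (0.930), *Lef1* (0.740) and *Rspo2* (0.498) were the lowest. *Rspo1*, *Rspo3* and *Wnt3a* lay closer to each other than the range of *Wnt3a* over embryos, and their order is not resolved. The order also varied with litter. *Dvl1* and *Wnt4* had 17.5 and 11.9 CPM per kb in litter 1 and 14.2 and 16.2 in litter 2, and *Wnt3a* and *Lef1* had 0.655 and 0.793 in litter 1 and 1.34 and 0.662 in litter 2. At these depths the lowest count behind any value was 58, in *Rspo1*, and the highest 6165, in *Dvl1*. Because whole tissue was sequenced, fewer cells of a type and less RNA per cell cannot be told apart in any of these values.

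**Figure D1:**
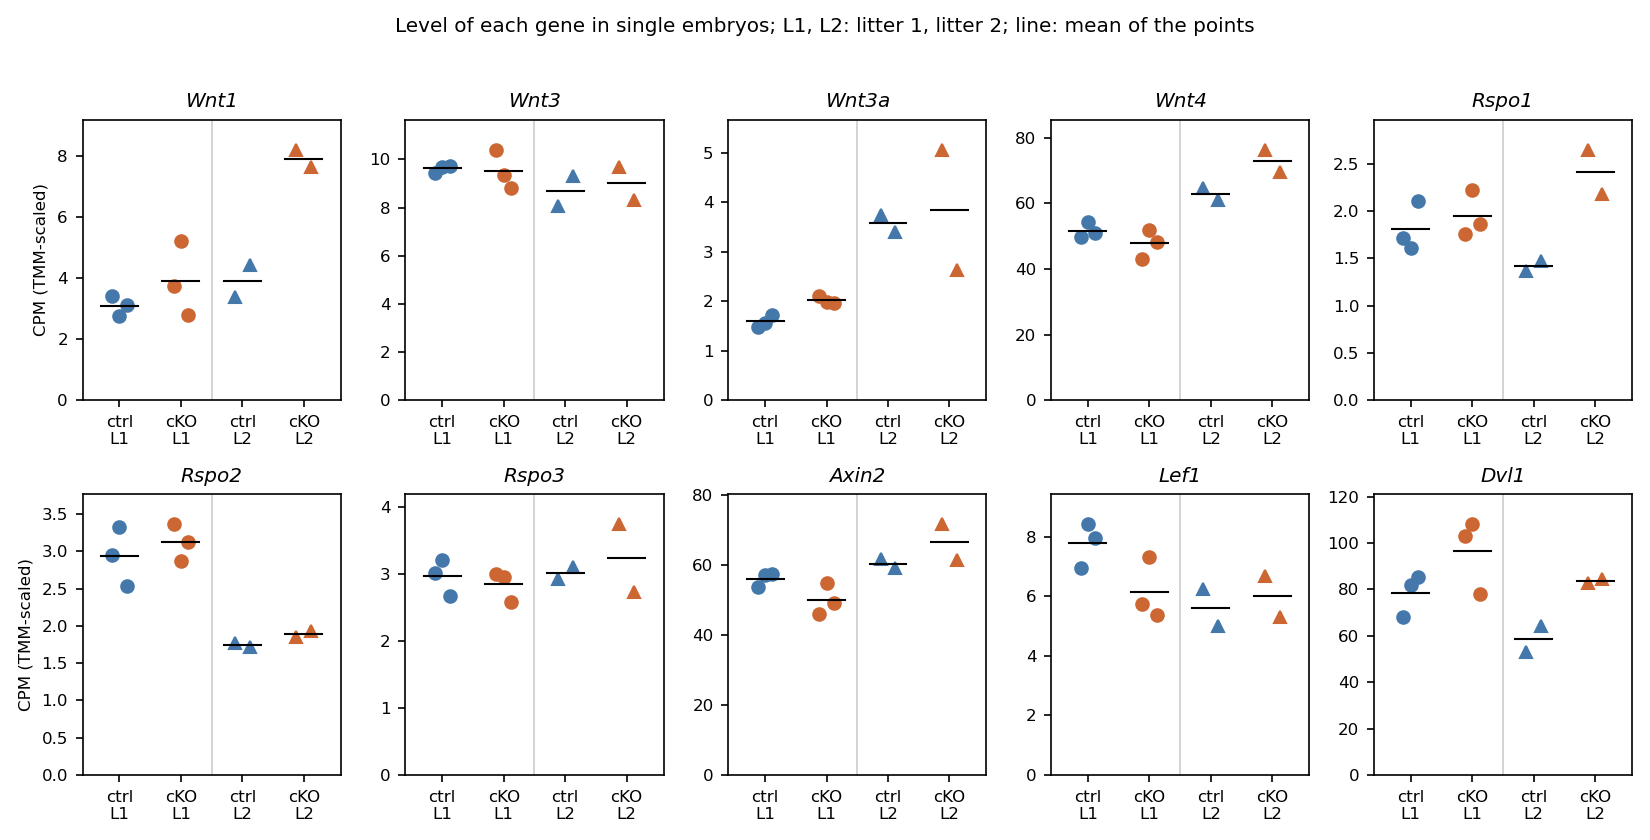
Level of each of the 10 genes in single embryos (y axis, CPM, counts per 1000000 after TMM scaling, starting at 0), by litter and group, with controls in blue, *Dot1l*-cKO in orange, litter 1 as circles, litter 2 as triangles and the mean as a line. *Wnt1* reached 8.20 and 7.62 CPM in the *Dot1l*-cKO embryos of litter 2, while *Wnt3a*, *Wnt4* and *Rspo2* were set apart by litter.

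The first question was whether ligand expression changed in *Dot1l*-cKO. *Wnt1* (ENSMUSG00000022997, chr15:98789857-98793837, GRCm38) is expressed in the roof plate and neighbouring dorsal cells. Controls had 3.41, 2.75 and 3.13 CPM in litter 1 and 3.39 and 4.42 in litter 2, and *Dot1l*-cKO embryos had 3.73, 5.21 and 2.80 in litter 1 and 8.20 and 7.62 in litter 2. The groups overlapped in litter 1. In litter 2 they were apart with *Dot1l*-cKO higher, which held for 24.4% of all tested genes (52.4% were apart in either direction), and the high values were those of the 2 *Dot1l*-cKO embryos of litter 2. The log2 fold change was 0.61 (SE 0.18, adjusted p = 0.0721) over both litters, 0.34 (SE 0.22, adjusted p = 0.531) in litter 1 and 1.03 (SE 0.17, adjusted p = 0.00435) in litter 2. The test of the difference between litters gave an interaction of 0.69 (SE 0.32, unadjusted p = 0.0468 and adjusted p = 0.591 over all genes, edgeR). Over both litters *Wnt1* passed the threshold with DESeq2 (adjusted p = 0.0145). It passed in edgeR without an expression filter (adjusted p = 0.0001075), where 2201 genes were called in place of 602. Of 10 edgeR fits that left out 1 embryo it passed in 1, without the third *Dot1l*-cKO embryo of litter 1 (log2 fold change 0.76, adjusted p = 0.00975). It did not pass with limma-voom (adjusted p = 0.0862), a robust edgeR fit (0.0738) or no litter in the edgeR model (0.453). After a correction for GC content its log2 fold change was 0.43 (adjusted p = 0.134, edgeR).

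*Wnt3a* (ENSMUSG00000009900, chr11:59248033-59290752) is a second roof plate ligand. It was measured at 1.49, 1.56 and 1.73 CPM in controls and 2.10, 1.99 and 1.97 in *Dot1l*-cKO of litter 1. In litter 2 the controls had 3.75 and 3.39 CPM and the *Dot1l*-cKO embryos 5.06 and 2.64. In litter 1 the groups were apart with *Dot1l*-cKO higher, which held for 9.19% of all tested genes (18.7% in either direction), and they overlapped in litter 2. The difference of 0.24 on the log2 scale (SE 0.16) did not pass (adjusted p = 0.418), nor did that of either litter, 0.34 and 0.11. It was 0.09 without the first and 0.39 without the second *Dot1l*-cKO embryo of litter 2 (adjusted p = 0.8 and 0.156, edgeR).

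*Wnt3* (ENSMUSG00000000125, chr11:103774150-103817957), another canonical ligand of the dorsal cord, was the steadiest of the 4. Controls had 9.45, 9.69 and 9.74 CPM in litter 1 and 8.07 and 9.31 in litter 2, and *Dot1l*-cKO embryos 10.4, 9.35 and 8.82 in litter 1 and 9.68 and 8.32 in litter 2. The groups overlapped in both litters. Its log2 fold change was 0.01 (SE 0.08, adjusted p = 0.948), and its sign changed when litter 1 was taken alone (-0.01).

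*Wnt4* (ENSMUSG00000036856, chr4:137277489-137299726), which is also expressed in the ventral cord, was the most abundant of these ligands. It had 49.7, 54.4 and 50.9 CPM in controls and 43.2, 52.0 and 48.4 in *Dot1l*-cKO of litter 1. In litter 2 it had 64.7 and 61.1 CPM in controls and 76.4 and 69.5 in *Dot1l*-cKO, where the groups did not overlap. The log2 fold change of 0.02 (SE 0.07, adjusted p = 0.894) combined -0.10 in litter 1 and 0.22 in litter 2, and the interaction was 0.32 (SE 0.12, unadjusted p = 0.0155 and adjusted p = 0.502, edgeR).

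*Wnt1* needed a separate comparison, because reads from any *Wnt1* exon carried by the transgene would be counted as *Wnt1*, while the other ligands could not gain reads in this way. The log2 ratio of *Wnt1* to *Wnt3a* counts was 1.19, 0.81 and 0.85 in the controls and 0.83, 1.39 and 0.50 in the *Dot1l*-cKO of litter 1. In litter 2 it was -0.14 and 0.38 in the controls and 0.70 and 1.52 in the *Dot1l*-cKO. Its mean was higher by 0.37 in *Dot1l*-cKO, which did not pass when group labels were permuted within litters (exact permutation p = 0.3, two-sided, 120 arrangements, smallest possible p 0.0167). The ratio did not differ in that direction in litter 1 (-0.04, exact p = 0.9) and was 0.99 in litter 2, where the exact test cannot go below p = 0.333. Against the mean of *Wnt3a*, *Wnt3* and *Wnt4* the difference was 0.51 (exact p = 0.1).

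The genes next to *Wnt1* were read for comparison. *Ddn*, 9940 bp away (log2 fold change -0.12, adjusted p = 0.713), *Prkag1* (0.04, adjusted p = 0.817) and *Arf3* (0.02, adjusted p = 0.817) did not pass the edgeR test. *Wnt10b*, a WNT ligand gene 11707 bp away, lay below the filter, with 2 to 54 reads. It had 0.0327 to 0.115 CPM in the 5 controls and 0.166 to 0.952 in the 5 *Dot1l*-cKO, so that the groups did not overlap, as for 1.92% of the genes that were tested. The highest value was that of the first *Dot1l*-cKO embryo of litter 2. The gene was singled out after its values were seen. *E2f1*, the gene named in the transgene's allele, fell by 0.32 on the log2 scale (SE 0.08, adjusted p = 0.0492, edgeR).

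R-spondins were examined next. *Rspo1* (ENSMUSG00000028871, chr4:124986430-125009099), a roof plate R-spondin, had 1.72, 1.61 and 2.11 CPM in controls and 1.76, 2.22 and 1.86 in *Dot1l*-cKO of litter 1. In litter 2 it had 1.37 and 1.47 CPM in controls and 2.65 and 2.18 in *Dot1l*-cKO. As for *Wnt1*, the groups overlapped in litter 1 and were apart in litter 2. Over both litters the log2 fold change of 0.36 (SE 0.16) did not pass (adjusted p = 0.216), with 0.10 in litter 1 and 0.77 in litter 2 (adjusted p = 0.0977 in edgeR). The interaction was 0.67 (SE 0.29, unadjusted p = 0.0375 and adjusted p = 0.578, edgeR).

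*Rspo2* (ENSMUSG00000051920, chr15:43020794-43170826) had 2.95, 3.33 and 2.54 CPM in controls and 3.36, 2.87 and 3.13 in *Dot1l*-cKO of litter 1, and 1.77, 1.72, 1.85 and 1.93 CPM in the 2 controls and 2 *Dot1l*-cKO of litter 2. All 4 embryos of litter 2 were below all 6 of litter 1. Between groups the log2 fold change was 0.10 (SE 0.12, adjusted p = 0.664), with 0.09 in litter 1 and 0.12 in litter 2, and 0.04 to 0.15 with 1 embryo left out, both ends from leaving out a control of litter 1 (the third and the second). *Rspo3* (ENSMUSG00000019880, chr10:29452416-29535867) had 2.67 to 3.21 CPM in controls (median 3.02) and 2.58 to 3.74 in *Dot1l*-cKO (median 2.95). Its groups overlapped in both litters, and its log2 fold change was 0.00 (SE 0.12, adjusted p = 0.992), with -0.05 in litter 1 and 0.11 in litter 2.

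The signal transducer *Dvl1* (ENSMUSG00000029071, chr4:155847402-155859303), a Dishevelled gene, rose. It had 68.1, 81.7 and 85.2 CPM in controls and 103, 108 and 78.2 in *Dot1l*-cKO of litter 1, and 53.2 and 64.3 in controls and 82.6 and 84.4 in *Dot1l*-cKO of litter 2. In litter 1 the third *Dot1l*-cKO embryo lay within the controls, and in litter 2 the groups were apart. The log2 fold change was 0.38 (SE 0.09, adjusted p = 0.0437), 0.30 in litter 1 (SE 0.12, adjusted p = 0.301) and 0.52 in litter 2 (SE 0.08, adjusted p = 0.00443). The interaction was 0.21 (SE 0.18, unadjusted p = 0.263 and adjusted p = 0.754, edgeR).

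*Dvl1* was 1 of 10 genes called, and across all 18901 tested genes 3.19% were called (602 genes, 376 higher and 226 lower, or 482 and 173 with library size in place of TMM scaling). The authors of the study had already named *Dvl1* among the genes deregulated in these embryos, so its call is not an independent result. At an unadjusted p below 0.05, *Wnt1*, *Rspo1* and *Dvl1* passed, 3 of 10, beside 22.2% of all tested genes. The call of *Dvl1* lay close to the threshold. It was lost in 9 of 10 fits that left out 1 embryo, with limma-voom (adjusted p = 0.0543) and after the GC correction (log2 fold change 0.25, adjusted p = 0.0583), while its direction was kept. With DESeq2 its adjusted p was 0.0037. The related *Dvl2* (log2 fold change 0.12, adjusted p = 0.389) and *Dvl3* (0.08, adjusted p = 0.454), which had 6.34 and 29.3 CPM per kb, did not pass in edgeR.

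**Figure D2:**
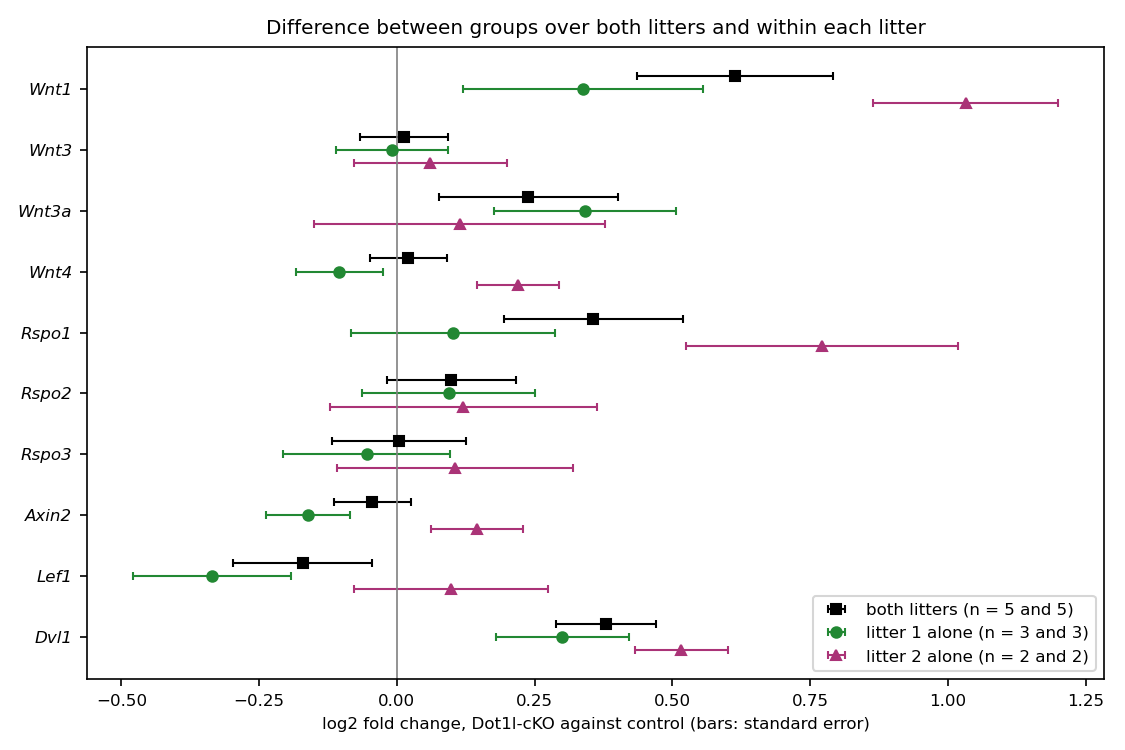
Log2 fold change of *Dot1l*-cKO against control (x axis) for each gene with its standard error, over both litters (black squares), in litter 1 (green circles) and in litter 2 (purple triangles). *Wnt1* stood at 0.34 and 1.03 and *Rspo1* at 0.10 and 0.77 in the litters, while *Wnt3* and *Rspo3* lay close to 0 in both.

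Finally, the targets were read as an output of the pathway. *Axin2* (ENSMUSG00000000142, chr11:108920349-108950783) had 53.7, 57.1 and 57.5 CPM in controls and 45.9, 54.8 and 49.2 in *Dot1l*-cKO of litter 1. In litter 2 it had 61.7 and 59.0 CPM in controls and 71.6 and 61.3 in *Dot1l*-cKO. The groups overlapped in both litters, with 2 *Dot1l*-cKO embryos below and 1 above all controls. Its log2 fold change was -0.04 (SE 0.07, adjusted p = 0.755), made of -0.16 in litter 1 and 0.15 in litter 2. The interaction was 0.31 (SE 0.12, unadjusted p = 0.0253 and adjusted p = 0.549, edgeR).

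*Lef1* (ENSMUSG00000027985, chr3:131110471-131224356) had 6.97, 8.42 and 7.95 CPM in controls and 5.74, 7.32 and 5.38 in *Dot1l*-cKO of litter 1, and 6.24 and 5.01 in controls and 6.70 and 5.32 in *Dot1l*-cKO of litter 2. No *Dot1l*-cKO embryo was above or below all controls. The log2 fold change of -0.17 (SE 0.13) did not pass (adjusted p = 0.459), with -0.34 in litter 1 and 0.10 in litter 2. With 1 embryo left out it ran from -0.26, without the first *Dot1l*-cKO embryo of litter 2, to -0.10, without the third of litter 1.

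The 4 genes whose interaction had an unadjusted p below 0.05, *Wnt1*, *Wnt4*, *Rspo1* and *Axin2*, all had the higher value in litter 2. None passed after adjustment, as 0.0106% of all genes did, and 8.43% of all genes had an unadjusted p below 0.05. Of the 10 genes, 2 (*Wnt1* and *Dvl1*) were called in litter 2 alone, both higher, beside 5.13% of genes (3.98% higher). None was called in litter 1 alone, where 2 genes, *Lef1* and *Dvl1*, had an unadjusted p below 0.05, beside 14.1% of all genes, and 0.0623% of all genes were called. In litter 2 the groups were apart in 5 of the 10 genes (*Wnt1*, *Wnt4*, *Rspo1*, *Rspo2* and *Dvl1*), each with the *Dot1l*-cKO embryos higher. That direction held for 24.4% of all tested genes, and 52.4% were apart in either direction. In litter 1 only *Wnt3a* was apart, with *Dot1l*-cKO higher, beside 9.19% of all tested genes in that direction and 18.7% in either direction.

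The litters themselves differed in 6 of the 10 genes, by the litter term of the edgeR fit. *Wnt3a* (log2 fold change of litter 2 against litter 1 1.04, SE 0.16, adjusted p = 0.00023), *Wnt1* (0.70, adjusted p = 0.00722), *Wnt4* (0.45, adjusted p = 0.00025) and *Axin2* (0.26, adjusted p = 0.0112) were higher in litter 2. *Rspo2* fell by 0.73 (adjusted p = 0.000389) and *Dvl1* fell by 0.31 (adjusted p = 0.0198). *Wnt3* (-0.12), *Rspo1* (0.00), *Rspo3* (0.11) and *Lef1* (-0.24) did not pass. For *Wnt3a*, *Wnt4*, *Axin2* and *Rspo2* all embryos of one litter were above all of the other, as for 24.3% of tested genes.

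Markers of several cell types differed between litters, beside 17.6% of all tested genes higher and 18.7% lower in litter 2. Of 9 dorsal progenitor markers 8 were higher in litter 2, with a median log2 fold change of 1.07 and a summed level of 104 to 163 CPM in litter 1 and 252 to 279 CPM in litter 2. Of 7 tested roof plate markers 4 were higher and 1 lower, with summed levels of 155 to 182 and 172 to 191 CPM. *Lmx1a*, which specifies the roof plate, had 1.36 to 2.18 CPM in litter 1 and 2.68 to 3.39 CPM in litter 2. It was named outside the rule for named genes, from this list with calls in both directions, and does not stand for the list. General neural progenitor markers moved as well, 7 of 8 being higher and 1 lower in litter 2 with a median of 0.58. Of 8 dorsal root ganglion markers 5 and of 5 endothelial markers 3 were lower in litter 2, and none was higher. Of 7 neuron markers 2 were lower, of 8 mesenchyme markers 1 was higher and 1 lower, and of 5 erythroid markers 3 were higher and 1 lower. The litters also differed in the floxed alleles and in the sex of the embryos, and the part of any of these in the litter values was not tested.

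**Figure D3:**
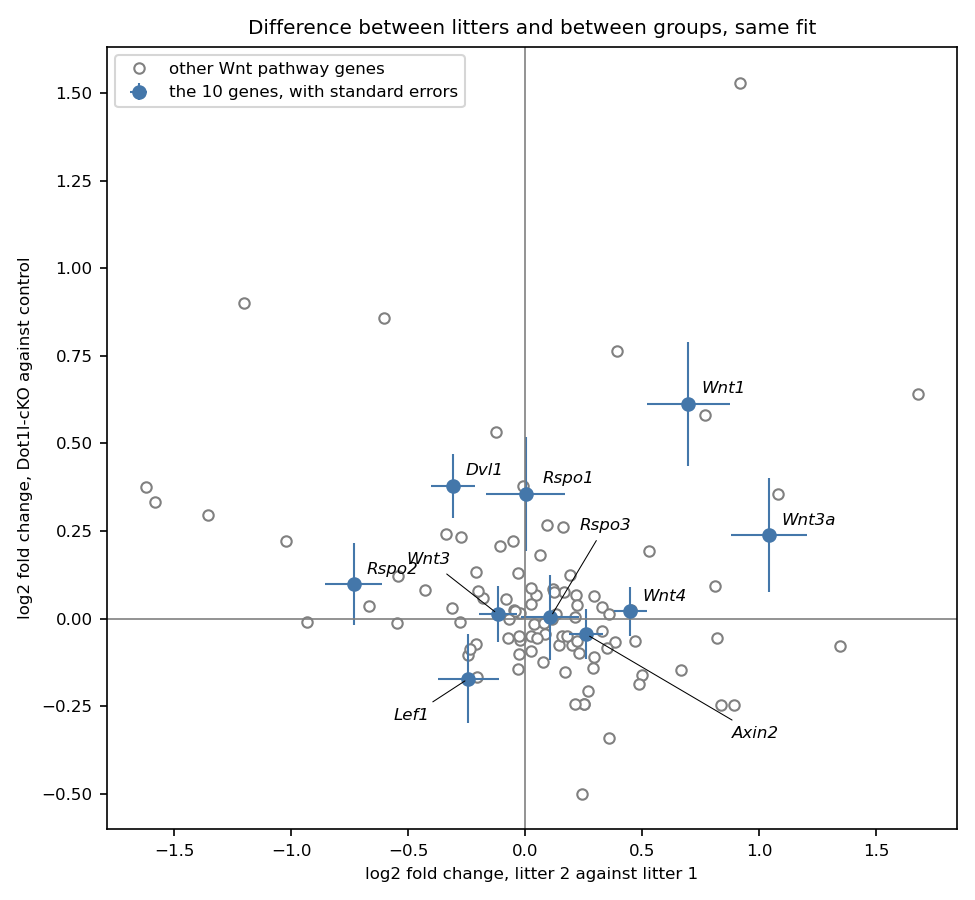
Log2 fold change between litters (x axis) and between groups (y axis) from the same fit, for the 10 genes with standard errors (blue) and the other tested Wnt pathway genes (open circles). *Wnt3a* and *Rspo2* lie at 1.04 and -0.73 between litters and at 0.24 and 0.10 between groups.

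Between groups, the same marker lists held few calls, beside 3.19% of all tested genes called and 22.2% with an unadjusted p below 0.05. Among the 7 roof plate markers none was called and 1 had an unadjusted p below 0.05, with a median log2 fold change of 0.01. Of 9 dorsal progenitor markers none was called and 4 had an unadjusted p below 0.05, with a median of -0.26 over both litters, -0.11 in litter 1 and 0.02 in litter 2. None of the 8 neural progenitor (median -0.03), 7 neuron (0.05), 8 dorsal root ganglion (0.01), 8 mesenchyme (-0.08) or 5 endothelial markers (-0.24) was called, with 0, 1, 3, 1 and 4 at an unadjusted p below 0.05. Some of these medians combined opposite values of the litters, with -0.17 in litter 1 and 0.33 in litter 2 for dorsal root ganglion, -0.28 and 0.22 for mesenchyme and -0.39 and 0.01 for endothelial markers. In the erythroid list *Hbb-bh1*, an embryonic globin, rose (0.41, adjusted p = 0.0342, edgeR). In litter 2, where *Wnt1*, *Rspo1* and *Dvl1* were apart, summed levels of several lists were apart too, in both directions. With 2 embryos of each group there, 52.4% of all tested genes were apart in either direction. Dorsal progenitor markers had 270.0 to 279.2 CPM in controls and 252.0 to 261.0 in *Dot1l*-cKO. Dorsal root ganglion markers had 613 to 625 CPM in controls and a higher 689 to 759 in *Dot1l*-cKO, mesenchyme markers 1080 to 1258 and 1310 to 1489, and erythroid markers 147.7 to 181.3 and 259.4 to 334.0. Roof plate markers had 172 to 175 and 176 to 191 CPM there, and overlapping sums of 160 to 177 and 155 to 182 CPM in litter 1. Endothelial markers were apart in litter 1, with 263 to 308 CPM in controls and 214 to 237 in *Dot1l*-cKO, beside 18.7% of all tested genes. Of the roof plate markers 3 of 7 had a negative log2 fold change, the lowest being *Msx2* (-0.62, adjusted p = 0.183, edgeR). *Gdf7*, a defining roof plate gene, lay below the filter with 0.101 to 0.164 CPM in controls and 0.157 to 0.653 in *Dot1l*-cKO, and was picked out, like *Msx2*, after its values were seen. The part of these cells in the values of the 10 genes was not tested.

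GC content moved with the difference between groups. *Wnt1* (60.7% GC in the longest transcript), *Rspo1* (59.7%) and *Dvl1* (59.3%), the 3 genes with the largest log2 fold changes, also had the highest GC content of the 10. Over all tested genes with a GC content of at least 58% the median log2 fold change was 0.15 and 7.52% were called higher, against -0.06 and 0.608% for genes under 42%. After the correction of each embryo for GC content the log2 fold changes of *Wnt1*, *Rspo1* and *Dvl1* were 0.43, 0.22 and 0.25, and no gene of the 10 was called, while *Wnt1* and *Dvl1* had an unadjusted p below 0.05.

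**Figure D4:**
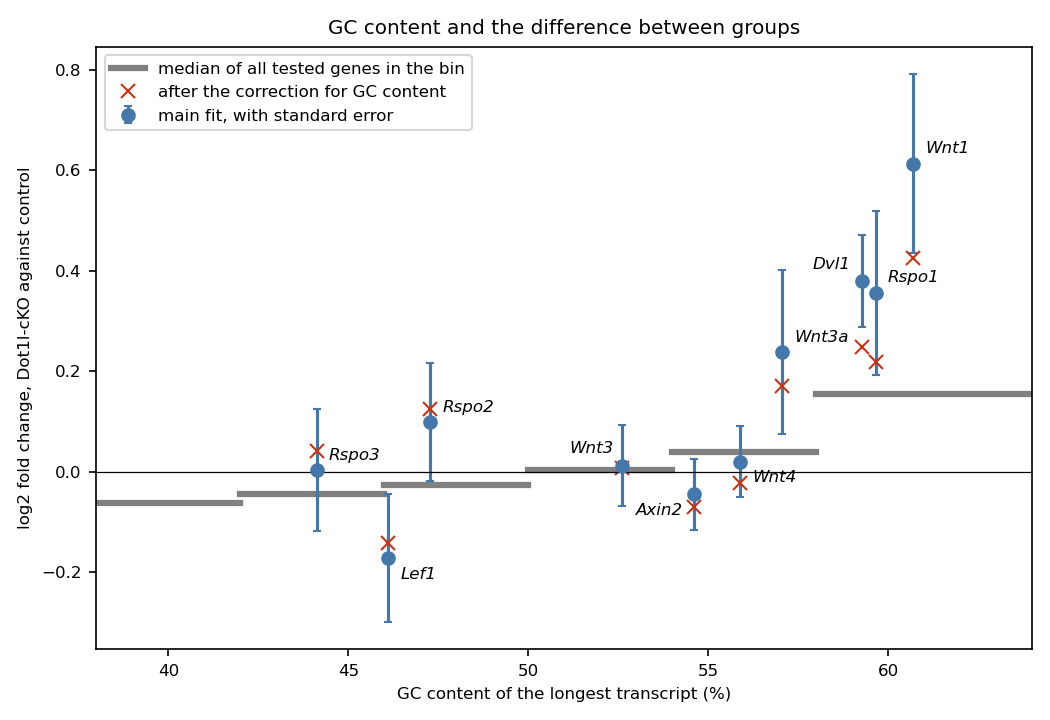
GC content of the longest transcript in percent (x axis) and log2 fold change of *Dot1l*-cKO against control (y axis) for the 10 genes, with standard errors (blue) and after the GC correction (red crosses). Grey bars give the median of all tested genes in bins of GC content, from -0.06 under 42% to 0.15 at 58% and above.

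Covariation within litters was then compared for all 45 pairs of the 10 genes, on log2 CPM with the mean of each litter subtracted (10 embryos, 100000 permutations within litters, Benjamini-Hochberg over 45 pairs). *Wnt4* and *Axin2* correlated with Pearson's r = 0.91 (permutation p = 0.00064, adjusted p = 0.0232) and Spearman's rho = 0.82 (permutation p = 0.00656, adjusted p = 0.148). *Axin2* and *Lef1* correlated with r = 0.89 (permutation p = 0.00103, adjusted p = 0.0232) and rho = 0.92 (permutation p = 0.00105, adjusted p = 0.0472). Without the 2 embryos farthest from the median of the first gene r was 0.83 and 0.91, within the 6 embryos of litter 1 it was 0.92 and 0.92, and with the group means also subtracted it was 0.91 and 0.86. Litter 2 holds only 4 embryos and was not taken alone. No other pair passed. *Wnt1* and *Rspo1* had r = 0.87 and *Wnt1* and *Dvl1* r = 0.85 (permutation p = 0.0198 and 0.00972, adjusted p = 0.178 and 0.146), with rho = 0.89 and 0.81 (permutation p = 0.0126 and 0.0164, adjusted p = 0.185 for both), and with group means subtracted r was 0.56 and 0.64. *Wnt1* and *Wnt3a* had r = 0.20 (permutation p = 0.726, adjusted p = 0.937) and rho = 0.32 (permutation p = 0.444, adjusted p = 0.973).

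Across 13588 genes with a mean log2 CPM of at least 1, those most like *Wnt1* over the 10 embryos were *Col5a3* (r = 0.98), *Htr1a* (0.97), *Tfeb* (0.96), *Zfp787* (0.95) and *Unc93b1* (0.94). Those most like *Wnt3a* were *Pet100* (r = 0.94), *Slc7a7* (0.93), *Gm42944* (0.87), *Muc1* (0.86) and *Lama3* (0.83). These values share the same 10 libraries, were the highest of many, and are given as a description.

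The rest of the pathway was read from 9 lists with 108 genes, of which 106 were tested. In *Dot1l*-cKO 3 rose and 1 fell, beside 1.99% and 1.2% of all genes, and the median log2 fold change was 0.01 against -0.01 over all tested genes. *Wif1*, a secreted inhibitor that binds WNT ligands and is itself a target, had 3.39, 3.17, 2.78, 3.13 and 2.40 CPM in the controls and 5.03, 4.42, 3.80, 4.43 and 3.88 in the *Dot1l*-cKO. All 5 *Dot1l*-cKO embryos were above all controls, which held for 1.02% of tested genes. Its log2 fold change was 0.53 (SE 0.12, adjusted p = 0.0356), with 0.51 in litter 1 and 0.58 in litter 2. *Celsr1*, a cadherin of planar cell polarity, fell by 0.34 (SE 0.08, adjusted p = 0.0422; -0.42 and -0.21 in the litters), from 101 to 141 CPM in controls to 73.7 to 118 in *Dot1l*-cKO. *Wnt10a* rose (1.53, SE 0.37, adjusted p = 0.0433, edgeR) at 2 to 29 reads per embryo, so that its fold change is imprecise. The fourth was *Dvl1*.

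By role, the counts at an unadjusted p below 0.05 stand beside 22.2% of all tested genes. Of 18 tested ligands 16 had a positive log2 fold change (median 0.22), 1 was called and 5 had an unadjusted p below 0.05. Beside *Wnt10a* the largest at a mean log2 CPM of at least 1 was *Wnt6* (0.86, adjusted p = 0.0958), which had 0.885 to 2.87 CPM in controls and 1.77 to 4.53 in *Dot1l*-cKO. Of 15 receptors and coreceptors 10 had a negative value (median -0.11) and none was called, 5 with an unadjusted p below 0.05. Of 9 R-spondins and their receptors none was called and 6 had an unadjusted p below 0.05. Their values ran in both directions, the highest being *Rspo4* (0.90, SE 0.30, adjusted p = 0.105), with 0.0996 to 0.615 CPM in controls and 0.370 to 1.15 in *Dot1l*-cKO. *Lgr5*, an R-spondin receptor and target, had the lowest value (-0.50, SE 0.16, adjusted p = 0.102), with 9.32 to 13.0 CPM in controls and 4.68 to 9.71 in *Dot1l*-cKO. The 16 targets had a median of -0.03 (-0.16 in litter 1 and 0.11 in litter 2), with 4 at an unadjusted p below 0.05. *Wif1* was called, and *Ccnd2*, a cyclin of dividing progenitors, was at -0.25 (adjusted p = 0.0839, edgeR). The inhibitors (15 tested, median 0.07), the Dishevelled and destruction complex genes (17, median -0.04) and the planar cell polarity genes (10, median -0.03) held 1 call each. The TCF/LEF factors and cofactors (12 tested, median 0.00) and the secretion genes (3, median 0.06) held none, with 2 and 0 at an unadjusted p below 0.05. Between litters 34 of the 106 genes were higher and 17 lower in litter 2, beside 17.6% and 18.7% of all tested genes.

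**Figure D5:**
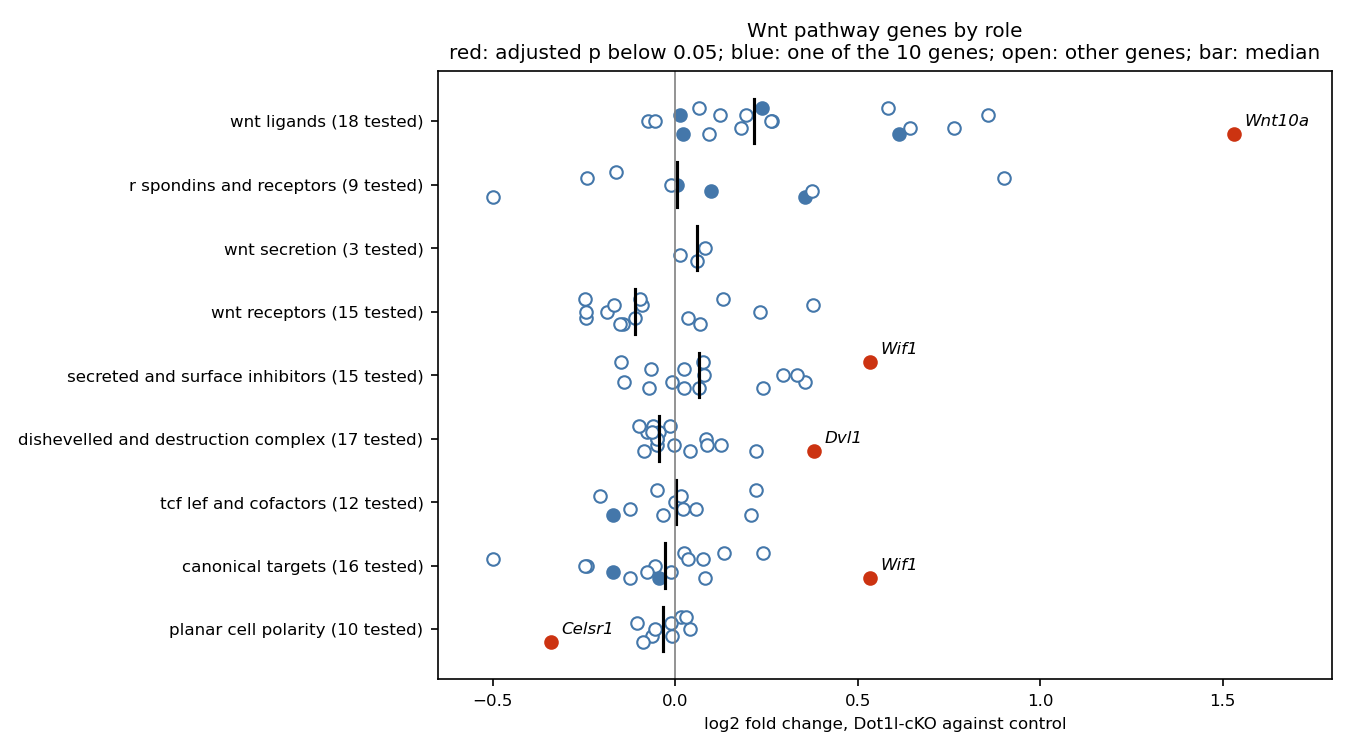
Log2 fold change of *Dot1l*-cKO against control (x axis) for the tested Wnt pathway genes, in rows by role, with the median of each row as a bar. Genes with an adjusted p below 0.05 are red, other genes of the 10 are filled blue, and the rest are open, with a gene of several lists drawn in each. Most points lie within 0.25 of 0, and *Wnt10a*, *Wif1*, *Dvl1* and *Celsr1* are the 4 called genes.

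Some counts may hold reads of overlapping genes, since whether strand was used in counting is not given in the sources used here. *Rspo1* overlaps the antisense gene *Gm12930* over 580 bp, and *Rspo3* overlaps *Gm20276* and *Gm48159*. *Axin2* overlaps *Gm11670* over 2706 bp, *Lef1* overlaps *Gm43352* and *Gm42449*, and *Dvl1* overlaps *Tas1r3* over 36 bp. These overlaps were taken between whole genes, introns included, and the part that lies in exons was not determined. Among 16 genes compared, the 10 and their closest relatives, 0 of 120 pairs shared a stretch of 75 bases, the read length.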

How the data were processed

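RNA from 10 single embryos was sequenced in paired-end reads of 75 bases. The authors trimmed reads with TrimGalore, aligned them to mm10 with STAR and counted them per gene with featureCounts on GENCODE annotation, and deposited raw counts for 54146 genes. Of these, 54079 identifiers had a name in GENCODE M21 (GRCm38). Column names gave the embryo of each column.

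Tests were run on the counts with edgeR 4.0.16 (R 4.3.3), with TMM scaling, the default expression filter by group, the litter in the model and Benjamini-Hochberg adjustment at 0.05 over 18901 tested genes. A standard error is the log2 fold change divided by the square root of F. CPM are counts per 1000000 after TMM scaling. The litter term and a group by litter term were tested in the same way, and each litter was fitted alone. DESeq2 1.42.0 and limma 3.58.1 (voom), other filters and scalings, a robust fit, an offset for GC content and leaving out each embryo were alternatives, and 1 further filter was chosen after seeing the data. The *Wnt1* to *Wnt3a* ratio used a pseudocount of 0.5 and an exact permutation test within litters. Scripts were tested on simulated counts.

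The 10 genes and all lists were chosen with earlier results of these data known. Genes named from the lists were those called, and in each direction the 3 with the largest log2 fold change at a mean log2 CPM of at least 1. Family members of the 10 genes could also be named. The labels give litters and embryos. Differences between embryos of a group, with 9.21 to 85.7 chi-square per gene over 20 pairs, exceeded counting error. These pairs include embryos of different litters, so the values also hold the difference between litters. Total counts had a median of 51225670 in controls and 59442058 in *Dot1l*-cKO. Sequences came from RefSeq tables of GRCm38.p6. One marker list is not reported here.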

Additional observations from a re-analysis of the deposited data

Results flagged for a closer look

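Each gene was checked in each group of 5 embryos for 1 value far from the rest, by its gap to the nearest value over the range of the group, against the 95% critical value of Dixon. Of 20 such checks 2 passed. Chance passes about 1 in 20 when all values come from 1 normal population, but each group mixed 2 litters, so that rate need not hold here. The control with the lowest *Wnt3* level, the first of litter 2, had 8.07 CPM, with a gap of 0.741 of the range. The *Dot1l*-cKO embryo with the highest *Wnt3a* level, the first of litter 2, had 5.06 CPM, with a gap of 0.782 of the range, in a gene that was higher in litter 2 in both groups. The log2 fold change of *Wnt3a* between groups was 0.09 without that embryo and 0.39 without the other *Dot1l*-cKO embryo of litter 2, with adjusted p of 0.8 and 0.156 in edgeR.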

How the results depend on the processing

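The number of genes called over the whole table (602) was 2201 without a filter, 1492 with DESeq2, 359 after the GC correction, 0 without the litter in the model (1867 at an unadjusted p below 0.05), 12 in litter 1 and 964 in litter 2 alone, and 48 to 1394 when 1 embryo was left out, lowest without the second *Dot1l*-cKO embryo of litter 2 and highest without the third *Dot1l*-cKO embryo of litter 1. Of the 10 genes, 2 were called without a filter, with DESeq2 and in litter 2 alone, 0 with limma-voom, the robust fit, no litter, the GC correction and in litter 1 alone, and 0 to 2 when 1 embryo was left out, 2 of them without the third *Dot1l*-cKO embryo of litter 1. The causes were not tested. The *Wnt1* to *Wnt3a* ratio turned to -0.0428 in litter 1 alone and was 0.18 without the first control of litter 2 and 0.24 without the second *Dot1l*-cKO embryo of litter 2.

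Signs turned only in values that had not passed the test. Between groups, *Wnt3* was -0.0090 in litter 1 alone and -0.0295 to 0.0461 with 1 embryo left out. *Wnt4* was -0.0223 after the GC correction, -0.105 in litter 1 alone and -0.0310 to 0.0752 with 1 embryo left out. *Rspo3* was -0.0032 with limma-voom, -0.0549 in litter 1 alone and -0.0870 to 0.0569 with 1 embryo left out. *Axin2* was 0.145 in litter 2 alone and -0.109 to 0.0035 with 1 embryo left out, and *Lef1* 0.0981 in litter 2 alone. Between litters, *Rspo1* was -0.0418 with library size only, -0.0065 without a filter, -0.0043 with at least 10 counts in every embryo and -0.133 to 0.105 with 1 embryo left out, and *Rspo3* was -0.0033 to 0.178. The interaction with 1 embryo left out was -0.0494 to 0.174 for *Wnt3*, -0.771 to 0.167 for *Wnt3a*, -0.0711 to 0.121 for *Rspo2* and -0.0877 to 0.369 for *Rspo3*. The 6 calls between litters numbered 5 or 6 in every alternative run, *Axin2* being lost without the first *Dot1l*-cKO embryo of litter 2 and *Dvl1* without the first control of litter 2. No paired analysis was possible because the groups share no replicate numbers, and litter was in the model instead. With 2 embryos of a group in litter 2, its estimates rest on few values.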
